A study of Mus musculus with 35 samples.

Results

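Single mouse embryonic fibroblasts were chosen by 1 measured value, the share of their sequencing reads that fell on added spike-in RNA. The 10 cells with the lowest share, the RNA-rich cells, were compared with the 10 cells with the highest share, the RNA-poor cells. These 20 cells were part of 35 cells, and the 15 cells in between served only for orientation. The RNA-rich side held 7 cells with micronuclei and 3 without, the RNA-poor side 6 with and 4 without, and the cells between 8 with and 7 without. All cells were C57Bl/6J fibroblasts grown at 3% oxygen that had received 1 Gy of ionising radiation, were reseeded on membrane dishes 32 h later and were cut out by laser 48 h after the dose, with DNA stained by PicoGreen. An unirradiated group was not analysed here. RNA of each cell was copied with Smart-seq2, a full-length method for polyadenylated RNA whose reads carry no molecular identifiers.

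Spike-ins of the External RNA Controls Consortium (ERCC) are synthetic RNAs of known sequence that are added to a sample in a set amount. When every library receives the same amount, a cell that brings little RNA of its own leaves more of its reads to the spike-ins, so the ratio of gene reads to spike-in reads is used as a relative measure of captured RNA. CPM, the gene reads scaled to the same total in every cell, shows by contrast only the composition of the RNA. Larger cells generally carry more messenger RNA, and cells enlarge on their way through the division cycle and in senescence, a lasting arrest that radiation can bring about. The amount of spike-in added is not given in the labels' protocols, and a cell with little RNA cannot be told apart from a cell whose RNA was partly lost at capture or in the reaction.

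No culture, embryo or plate is named for these single cells, so each side counts as 1 sample. All values below therefore describe these cells, without a p-value, and the spread between cells is given as lowest, median and highest value or as the standard deviation (SD). Reads on genes ranged from 92222 to 1794113 in RNA-rich cells (median 718656) and from 61435 to 1154998 in RNA-poor cells (median 350373). Some libraries stood apart. Micronucleated cell 10, on the RNA-rich side, held 16951 CPM on the 13 macrophage markers beside 9448 CPM on the fibroblast markers, and micronucleated cell 6, on the RNA-poor side, held 1452 CPM of macrophage markers, all on 1 of the 13. Below, the 2 cells with macrophage markers are these 2, which held over 1000 CPM. Micronucleated cells 4 and 1 and cell 11 without micronuclei, all RNA-rich, held 358, 60.3 and 14.0 CPM and were kept throughout. Micronucleated cell 4, RNA-rich, had 9.57% of its reads on mitochondrial genes. Micronucleated cells 21 and 6 and cell 1 without micronuclei, all RNA-poor, had 3097, 2391 and 3861 genes with a read. The 10 fibroblast markers include the collagens Col1a1, Col1a2 and Col3a1 and the filament gene Vim. Their summed CPM lay between 6786 and 13190 in RNA-rich cells (median 10743) and between 4509 and 19436 in RNA-poor cells (median 10032). All 20 cells thus held reads on this list as a sum, which does not settle the type of each cell. Micronucleated cell 6 held 2701 CPM on the collagen and matrix list, where the RNA-poor median was 26820.5 CPM. Markers of endothelial and erythroid cells reached at most 32.5 and 14.9 CPM in any RNA-rich cell and 0 and 6.84 CPM in any RNA-poor cell. The highest sums of epithelial, neural, chondrocyte and adipocyte markers were 239, 639, 479 and 65.4 CPM in an RNA-rich cell and 409, 421, 335 and 146 CPM in an RNA-poor cell. Of the 8 skeletal muscle markers 1 was measured, the actin gene Acta1, with a mean of 1533.5 CPM in RNA-rich and 746 CPM in RNA-poor cells. The sum of these markers was uneven, with medians of 567 CPM in RNA-rich and 180 CPM in RNA-poor cells. It reached 6447 and 5426 CPM in RNA-rich micronucleated cells 2 and 1 and 5274 CPM in RNA-poor micronucleated cell 6.

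The spike-in share that chose the cells lay between 0.155% and 0.675% in RNA-rich cells (median 0.342%) and between 2.98% and 7.39% in RNA-poor cells (median 5.14%). Expressed as gene reads per spike-in read, the RNA-rich cells stood, in order of rank, at 645, 619, 325, 309, 304, 280, 244, 195, 168 and 147. The RNA-poor cells stood at 32.6, 31.1, 26.3, 24.7, 20.4, 16.8, 14.9, 14.7, 13.3 and 12.5, so that the lowest RNA-rich cell was 4.51 times the highest RNA-poor cell and the extremes differed 51.4-fold. Summed over a side, there were 257 gene reads per spike-in read in RNA-rich cells and 19.1 in RNA-poor cells, a 13.4-fold difference. The medians of cells were 292 and 18.6, a 15.7-fold difference. At the edges, the last RNA-rich cell had a share of 0.675% and the next cell outside 0.727%, while the first RNA-poor cell had 2.98% and the last cell outside 2.85%. These values are those the ranking used and are given as a description. Both parts of the ratio differed: the median RNA-rich cell had 2.05 times the gene reads of the median RNA-poor cell and 0.186 times its spike-in reads.

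**Figure D1:**
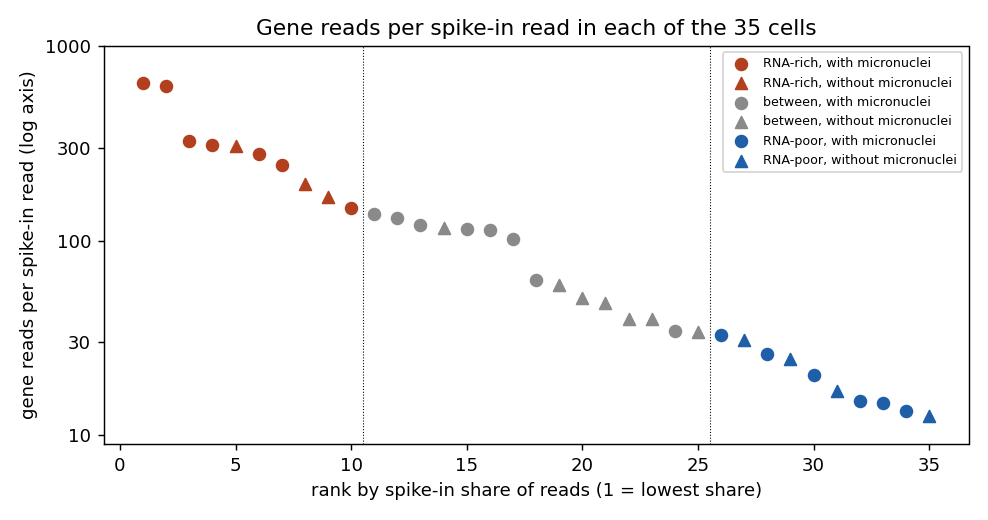
Gene reads per spike-in read (log axis) for each of the 35 cells, ordered by rank of spike-in share from the lowest share on the left, with circles for cells with micronuclei and triangles for cells without. RNA-rich cells, left of the first dotted line, lie between 147 and 645, and RNA-poor cells, right of the second, between 12.5 and 32.6.

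Micronuclei are small bodies of chromatin enclosed apart from the main nucleus. The label was present in 70.0% of RNA-rich cells (exact Clopper-Pearson 95% interval 34.8 to 93.3%) and in 60.0% of RNA-poor cells (26.2 to 87.8%), beside 60.0% of all 35 cells. Intervals here and below cover counting error only. With 10 cells a side a difference in this share was not detectable. Gene reads per spike-in read averaged 367 in RNA-rich cells with micronuclei (SD 190, 7 cells) and 223 in those without (SD 72.1, 3 cells). Among RNA-poor cells they averaged 20.4 with micronuclei (SD 7.69, 6 cells) and 21.3 without (SD 8.24, 4 cells).

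RNA-rich cells yielded more different genes. A read was found on 6362 to 8964 genes in RNA-rich cells (median 7076) and on 2391 to 8058 genes in RNA-poor cells (median 5081). Sequencing depth differed in the same direction, and after thinning every cell to 90000 gene reads the RNA-rich cells held 4871 to 7569 genes (median 5603.5) and the RNA-poor cells 2101 to 6232 (median 4744), with 1 RNA-poor cell too shallow to be thinned. The sides overlapped in both counts. The gap lay among cells with micronuclei, where the thinned count had a median of 6462 in 7 RNA-rich cells and 3692 in 5 RNA-poor cells and the highest RNA-poor cell, at 4997, exceeded only the lowest RNA-rich cell. Without micronuclei the medians were 5153 in 3 RNA-rich cells and 5229.5 in 4 RNA-poor cells. Whether the gap differs between the labels was not tested. Genes with at least 5 reads in all 10 cells numbered 1378 on the RNA-rich side and 455 on the RNA-poor side. Of these, 429 met the mark in all 20 cells, which is 31.1% of the first set and 94.3% of the second. Of the 16250 genes with any read in the 20 cells, 91 had at least 5 reads in 8 or more RNA-rich cells and in 2 or fewer RNA-poor cells. The reverse was shown by 0 genes. These counts at 5 reads were made without thinning, and the deeper sequencing of the RNA-rich cells favours that side.

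**Figure D2:**
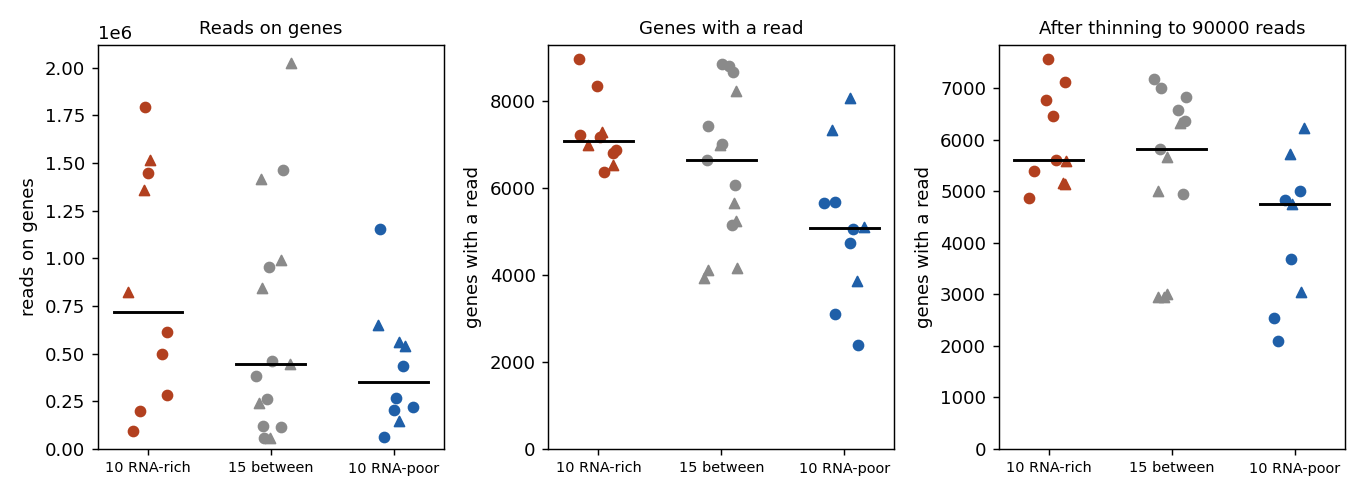
Reads on genes, genes with a read, and genes with a read after thinning to 90000 reads, for each RNA-rich cell, each cell between and each RNA-poor cell, with circles for cells with and triangles for cells without micronuclei and lines at the medians. Genes with a read had medians of 7076 in RNA-rich and 5081 in RNA-poor cells, and the sides overlap in all 3 panels.

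Composition was compared for 7018 measured genes, those with a mean of at least 5 CPM and at least 5 reads in at least 5 of the 20 cells, out of 16250 with any read. The log2 ratio is that of the mean CPM per cell plus 1, RNA-rich over RNA-poor. It was above 0 for 3970 genes and below 0 for 3048, with a median of 0.16. At least 2-fold higher were 1596 genes, 22.7% of those measured, and at least 2-fold lower were 813 genes, 11.6%. Of 1230 genes averaging 5 to 20 CPM, 38.8% were at least 2-fold higher and 9.59% at least 2-fold lower. Of 3963 genes at 20 to 100 CPM these were 25.2% and 14.3%, and of the 282 genes with at least 500 CPM 3.55% and 2.13%. The filter of 5 reads is harder to meet in the shallower RNA-poor cells, so rare genes that are high there can be left out. Genes of the 5 to 20 CPM class reached 5 reads in a median of 4 RNA-rich and 2 RNA-poor cells. The part of the filter in the excess of higher genes was not tested. After thinning, which left 4342 measured genes, 803 were at least 2-fold higher and 428 at least 2-fold lower. Within cells without micronuclei 3372 genes were measured and these numbers were 635 and 558. When each cell's CPM was put on a log2 scale before averaging, the median of all genes moved to 1.09, since the many cells without a read on a gene then weigh more. On that scale the 282 genes with at least 500 CPM had a median of 0.06. List values on that scale are given relative to all genes, a reference that is not matched for abundant lists. Per spike-in read, as the ranking fixes, 6984 of the 7018 genes were higher in RNA-rich cells, with a median log2 ratio of 4.14, 12 were lower and 22 had no read in any RNA-poor cell.

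The clearest common pattern was in the genes for ribosomal proteins, the structural proteins of the cytosolic ribosome, which are among the most abundant messages of any cell. They were lower in CPM in RNA-rich cells. All 81 listed genes were measured and 80 of them had a lower mean, against 43.4% of all measured genes, with a median log2 ratio of -0.49 and a range from -1.29 to 0.04. The 47 genes of the large subunit had a median of -0.51 and the 34 of the small subunit a median of -0.49. The shift was even and small: 1 gene was more than 2-fold lower, 0 genes separated the sides fully, and 79 had a lower median as well. Together they took 2.92 to 5.91% of gene reads in RNA-rich cells (median 4.79%, SD 0.853) and 5.53 to 9.05% in RNA-poor cells (median 5.97%, SD 1.25), and the cells between had a median of 5.82%. Of the RNA-rich cells, 9 of 10 lay below every RNA-poor cell, the exception being micronucleated cell 4 at 5.91%, and 6 RNA-poor cells lay above every RNA-rich cell. The order of these shares held within each label. With micronuclei the medians were 4.74% in RNA-rich and 6.06% in RNA-poor cells, and without micronuclei 5.31% and 5.87%. Gene by gene, 81 of the 81 were lower within micronucleated cells and 63 within cells without micronuclei. Of all measured genes 56.4% and 51.8% were higher in these 2 comparisons. Without micronuclei every RNA-rich cell, at 4.51 to 5.38%, lay below every RNA-poor cell, at 5.75 to 6.19%. Across all 35 cells the share had a Spearman correlation of -0.56 with gene reads per spike-in read, and across the 15 cells between it was -0.25. Both measures come from the same reads of the same libraries, so this is a description.

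Rpl36, a large-subunit protein gene at chr17:56613416-56614243 (plus strand, GENCODE annotation of GRCm38), had the largest difference of the family. Its level was 104 to 427.5 CPM in RNA-rich cells (median 339) and 356 to 1179 CPM in RNA-poor cells (median 632), and 8 RNA-poor cells exceeded every RNA-rich cell. Its log2 ratio was -1.29, and -1.37 to -1.19 with any 1 cell left out. Rpl32 averaged 614 CPM in RNA-rich and 1210 CPM in RNA-poor cells (log2 ratio -0.98), and Rpl21 428 and 727 CPM (-0.76). Of the small subunit, Rps12 averaged 277 CPM in RNA-rich and 547 CPM in RNA-poor cells (-0.98), and Rps25 499 and 937 CPM (-0.91). Rpl18 was the single gene without a lower mean, with 443 to 791 CPM in RNA-rich cells (median 679) and 222 to 1107 CPM in RNA-poor cells (median 611), and it is named here because its value stood out. Per spike-in read, where the ranking fixes the direction, Rpl36 averaged 84.2 reads per 1000 spike-in reads in RNA-rich cells and 14.1 in RNA-poor cells.

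Messages for ribosomal proteins commonly begin with a run of pyrimidines, the 5′ terminal oligopyrimidine tract, through which their translation is controlled as a group. Of the 81 genes, 60 had a promoter of the full 300 bases in the RefSeq table. The letters CTTTCC, read on the sense strand from 10 bases before to 20 bases after the annotated start, were in 8 of these 60 (13.3%), in 1.25% of the promoters of 5355 other measured genes and in 1.26% of all 27025 promoters. On either strand anywhere in the window they were in 45%, 26.5% and 26.3%. The 8 genes with the letters at the start had a median log2 ratio of -0.30 and the 52 without them a median of -0.53, so the lower CPM was not larger where the letters stood. The 52 may begin with pyrimidine runs of other letters. The comparison therefore cannot decide on the tract itself, whose part was not tested. A match is a description of the letters and not a site. Shown are the promoters of Rpl28 and Rps27, the 2 of the 8 with the lowest ratios, and of Rpl18, also among the 8, which was not lower. Each is 300 bases of GRCm38.p6 from RefSeq, 5′ to 3′ on the gene's own strand, from 250 bases before the start, with CTTTCC and its reverse complement GGAAAG in capitals. Rpl28 lies on the plus strand at chr7:4792715-4793014, Rps27 on the minus strand at chr3:90213599-90213898 and Rpl18 on the plus strand at chr7:45717821-45718120.
Rpl28: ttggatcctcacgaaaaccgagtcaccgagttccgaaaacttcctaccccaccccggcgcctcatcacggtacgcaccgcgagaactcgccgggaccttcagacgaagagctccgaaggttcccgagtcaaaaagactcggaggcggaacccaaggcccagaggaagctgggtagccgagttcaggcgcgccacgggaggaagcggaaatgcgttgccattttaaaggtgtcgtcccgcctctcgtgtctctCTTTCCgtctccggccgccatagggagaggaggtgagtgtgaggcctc
Rps27: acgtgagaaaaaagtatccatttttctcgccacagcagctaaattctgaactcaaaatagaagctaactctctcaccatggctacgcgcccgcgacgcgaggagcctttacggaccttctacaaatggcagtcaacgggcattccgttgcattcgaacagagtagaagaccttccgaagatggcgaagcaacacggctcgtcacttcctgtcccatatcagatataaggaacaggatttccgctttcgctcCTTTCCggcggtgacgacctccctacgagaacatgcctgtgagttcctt
Rpl18: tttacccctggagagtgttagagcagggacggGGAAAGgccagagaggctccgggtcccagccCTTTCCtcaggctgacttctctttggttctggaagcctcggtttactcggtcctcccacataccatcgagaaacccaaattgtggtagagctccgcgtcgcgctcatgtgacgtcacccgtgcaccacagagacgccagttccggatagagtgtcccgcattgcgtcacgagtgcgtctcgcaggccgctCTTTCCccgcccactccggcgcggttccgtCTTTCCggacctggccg

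With these sequences, Rpl28 had 152 to 531 CPM in RNA-rich cells (median 229) and 286 to 617 CPM in RNA-poor cells (median 398), a log2 ratio of -0.62. Rps27 had 314 to 1162 CPM in RNA-rich cells (median 699) and 540 to 1872 CPM in RNA-poor cells (median 1131), a log2 ratio of -0.64. In both genes the sides overlapped. Other properties moved with this result. Genes with under 1000 bases of exon had a median log2 ratio of -0.38 (272 genes), those of 1000 to 2000 bases -0.06, those of 2000 to 4000 bases 0.17, those of 4000 to 8000 bases 0.31 and the 1387 longer ones 0.19. Of the 15 genes that are under 1000 bases and at 500 CPM or more without being ribosomal or mitochondrial, 14 were lower, with a median of -0.41, while 206 equally abundant longer genes had a median of 0.08. Of 87 processed pseudogenes, many of which copy such abundant short messages and can share their reads, 66 were lower, with a median of -0.35. Ribosomal protein genes have many near-identical pseudogene copies, so their counts are uncertain to that extent, and the part of message length and of shared reads in the ribosomal result was not tested. With the 2 cells over 1000 CPM of macrophage markers left out, 81 of the 81 genes were lower, and without the 3 RNA-poor cells under 4000 genes 80 were.

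The other parts of the protein synthesis machinery did not follow. Of 35 translation factor genes 17 were higher and 18 lower, with a median of -0.03. Among them, Eif3g, a subunit of the initiation factor that brings ribosomes to messages, averaged 386 CPM in RNA-rich and 133 CPM in RNA-poor cells (log2 ratio 1.53), while Eif3i of the same complex averaged 128 and 334 CPM (-1.38). Of 30 measured genes for making ribosomes in the nucleolus, 13 were higher and 17 lower, with a median of -0.03. Myc, a growth-promoting transcription factor, had 0 to 290 CPM in RNA-rich cells (median 61.5) and 0 to 63.6 CPM in RNA-poor cells (median 0), a log2 ratio of 3.08. Ubtf, a transcription factor for ribosomal RNA genes, had medians of 39.3 CPM in RNA-rich and 0 CPM in RNA-poor cells (2.48). Genes of RNA polymerase II and its Mediator complex had a median of 0.18 close to that of all genes, with 20 of 33 higher. Polr2a, the catalytic subunit, had 0 to 288 CPM in RNA-rich cells (median 76.4) and 0 to 138 CPM in RNA-poor cells (median 1.36), a log2 ratio of 1.71. Splicing factors and hnRNP proteins had a median of -0.01, with Hnrnpa1 at 287 CPM in RNA-rich and 104 CPM in RNA-poor cells on average (1.46) and Hnrnpd at 22.6 and 73.3 CPM (-1.65). For messenger RNA decay 15 of 30 genes were higher and 15 lower, and the median was -0.04 with equal weight per cell and 0.62 with summed reads.

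Transcripts of the mitochondrial genome, which encodes core subunits of the respiratory chain and the mitochondrial ribosomal RNAs, were also a smaller part of the reads in RNA-rich cells. Of 15 listed genes 10 were measured and 9 of those were lower, 3 of them at least 2-fold, beside 43.4% and 11.6% of all measured genes, with a median log2 ratio of -0.84. With 7 cells a side 6 of 10 were lower, and within cells without micronuclei 6 of 9. The median lay at -1.16 without micronucleated cell 4, which carried 9.57% mitochondrial reads, and at -0.53 without micronucleated cell 21. Mitochondrial genes took 0.444 to 9.57% of reads in RNA-rich cells (median 1.13%) and 0.504 to 5.28% in RNA-poor cells (median 2.92%). The second highest RNA-rich cell stood at 2.54%, above the 4 lowest RNA-poor cells at 0.504%, 1.01%, 1.96% and 2.08%, so the sides overlapped. mt-Nd2, a subunit of respiratory complex I, had 150 to 624.5 CPM in RNA-rich cells (median 349) and 36.3 to 2132 CPM in RNA-poor cells (median 1191). Its log2 ratio was -1.78, and 9 RNA-poor cells lay above every RNA-rich cell. mt-Nd5 of the same complex had medians of 486 CPM in RNA-rich and 1702 CPM in RNA-poor cells (-1.40). mt-Co1, a subunit of complex IV, had medians of 536 and 975.5 CPM (-0.77). Its ratio was -0.30 without micronucleated cell 21, 0.15 with 7 cells a side and 0.35 within cells without micronuclei. The ribosomal RNA mt-Rnr1 was the gene with a higher mean, of 3802 CPM in RNA-rich and 3397 CPM in RNA-poor cells, but its medians were 1184 and 3258 CPM and its ratio was -1.78 without micronucleated cell 4. Counts of mt-Co2, mt-Atp6, mt-Atp8 and mt-Nd4l averaged at most 0.870 CPM in RNA-rich and 1.22 CPM in RNA-poor cells. mt-Co3, also below the minimum for measured genes, averaged 0.275 and 7.57 CPM, a log2 ratio of -2.75. Mitochondrial genes have near-identical nuclear copies, so their counts are uncertain. Nuclear genes of oxidative phosphorylation had a median of -0.20 over 68 genes, 24 higher and 44 lower. That median departed from all genes by -0.36, by -0.68 within micronucleated cells and by 0.36 within cells without micronuclei.

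**Figure D3:**
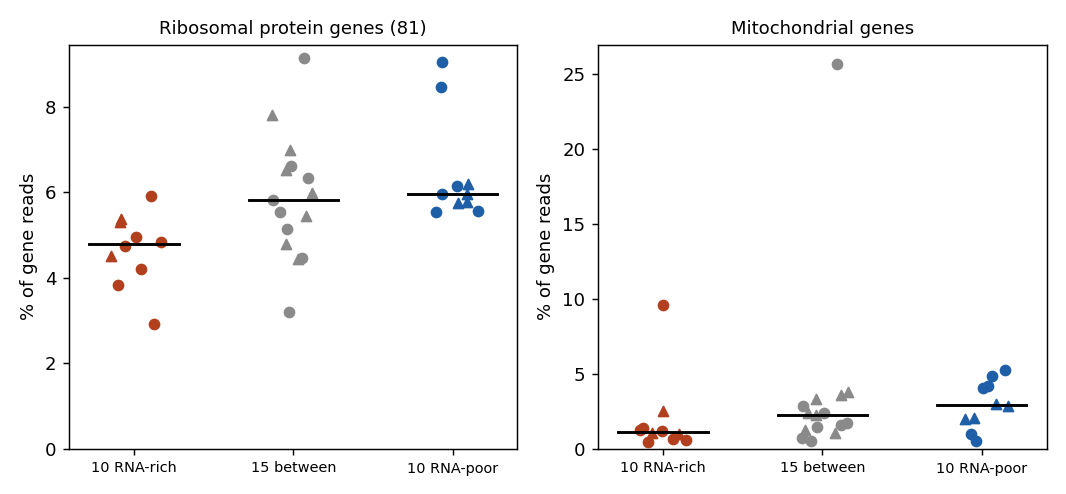
Percent of gene reads on the 81 ribosomal protein genes and on mitochondrial genes in each RNA-rich cell, each cell between and each RNA-poor cell, with circles for cells with and triangles for cells without micronuclei and lines at the medians. Medians for ribosomal protein genes are 4.79% in RNA-rich and 5.97% in RNA-poor cells, and for mitochondrial genes 1.13% and 2.92%.

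Every RNA-rich cell exceeded every RNA-poor cell for 2 genes, 0.0285% of those measured, and 0 genes showed the reverse. Dclk1, a kinase that binds microtubules, at chr3:55242364-55539068, had 40.8 to 451 CPM in RNA-rich cells (median 106) and 0 to 35.8 CPM in RNA-poor cells (median 0). It had at least 5 reads in 10 RNA-rich cells and 1 RNA-poor cell, and a log2 ratio of 4.27. With 17 cells a side the ratio of Dclk1 was 1.69. Dhx16, an RNA helicase of the spliceosome, named for this separation, was far rarer, with 1.98 to 141 CPM in RNA-rich cells (median 22.5) and 0 to 1.73 CPM in RNA-poor cells (median 0). Its reads numbered 395 on the RNA-rich side and 2 on the RNA-poor side. The 15 cells between had a median of 52.8 CPM for Dclk1 and 0 CPM for Dhx16, so for Dhx16 they were at the RNA-poor median.

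The other genes at the head of the higher ranking were seen in most RNA-rich cells, as the naming rule requires, and in few RNA-poor cells. Nln, a peptidase of neuropeptides, had 507 reads in 8 RNA-rich cells and 0 in the RNA-poor cells. With 3 reads set for the RNA-poor side, the limit that a count of 0 allows, its summed CPM was at least 82.9-fold higher. This floor covers counting error only and not the spread between cells, and 1 RNA-rich cell held 56.6% of the Nln reads. The log2 ratio of Nln was 5.79, and 2.18 with 17 cells a side. Tjp1, a scaffold of cell junctions, had 343 reads on the RNA-rich side, 36.2% of them in 1 cell, and 0 on the RNA-poor side. By the same floor its summed CPM was at least 56.1-fold higher. Rab5a, a GTPase of early endosomes, had 381 reads in RNA-rich and 3 in RNA-poor cells, a ratio of summed CPM of 62.3 with a counting interval of 21.2 to 304. B4gat1, which builds the sugar chain of dystroglycan, had 131 CPM over the summed RNA-rich reads (95% Poisson interval 124 to 139) and 0.945 CPM over the RNA-poor reads (0.257 to 2.42).

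Lrrc15, a membrane protein of mesenchymal cells, had 6.63 to 293 CPM in RNA-rich cells (median 123) and 0 to 16.3 CPM in RNA-poor cells (median 0), and 9 of 10 RNA-rich cells lay above every RNA-poor cell (log2 ratio 4.57). Itga6, the integrin alpha 6 subunit that binds laminin, had 32.5 to 246 CPM in RNA-rich cells (median 138) and 0 to 51.9 CPM in RNA-poor cells (median 0), with 9 cells above every RNA-poor cell (3.54). S1pr3, a receptor for sphingosine 1-phosphate, had medians of 96.6 CPM in RNA-rich and 0 CPM in RNA-poor cells (3.89). Cldn12, a claudin, had medians of 82.7 and 0 CPM (4.13), Pmp22, a membrane protein of myelin and fibroblasts, 128 and 0 CPM (3.62), and the MHC class I gene H2-T22 113 and 0 CPM (3.65). Inside the cell, Inpp4a, a phosphoinositide phosphatase, had medians of 110 CPM in RNA-rich and 0 CPM in RNA-poor cells (4.46), and Cdk13, a kinase of transcription elongation, 32.97 and 0 CPM (4.25). The phospholipase Ddhd2 had 65.0 and 0 CPM (4.85) but was not stable to the number of cells, since its log2 ratio was -1.21 with 17 cells a side. At that number other ratios shrank too. Cdk13 then stood at 0.33, Itga6 at 0.42, H2-T22 at 1.05, Pmp22 at 1.27, S1pr3 at 1.47 and Cldn12 at 2.02. Lrrc15 stood at 3.35 and Inpp4a at 3.75. In all genes of this paragraph at least 6 of the 10 RNA-poor cells held no read.

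**Figure D4:**
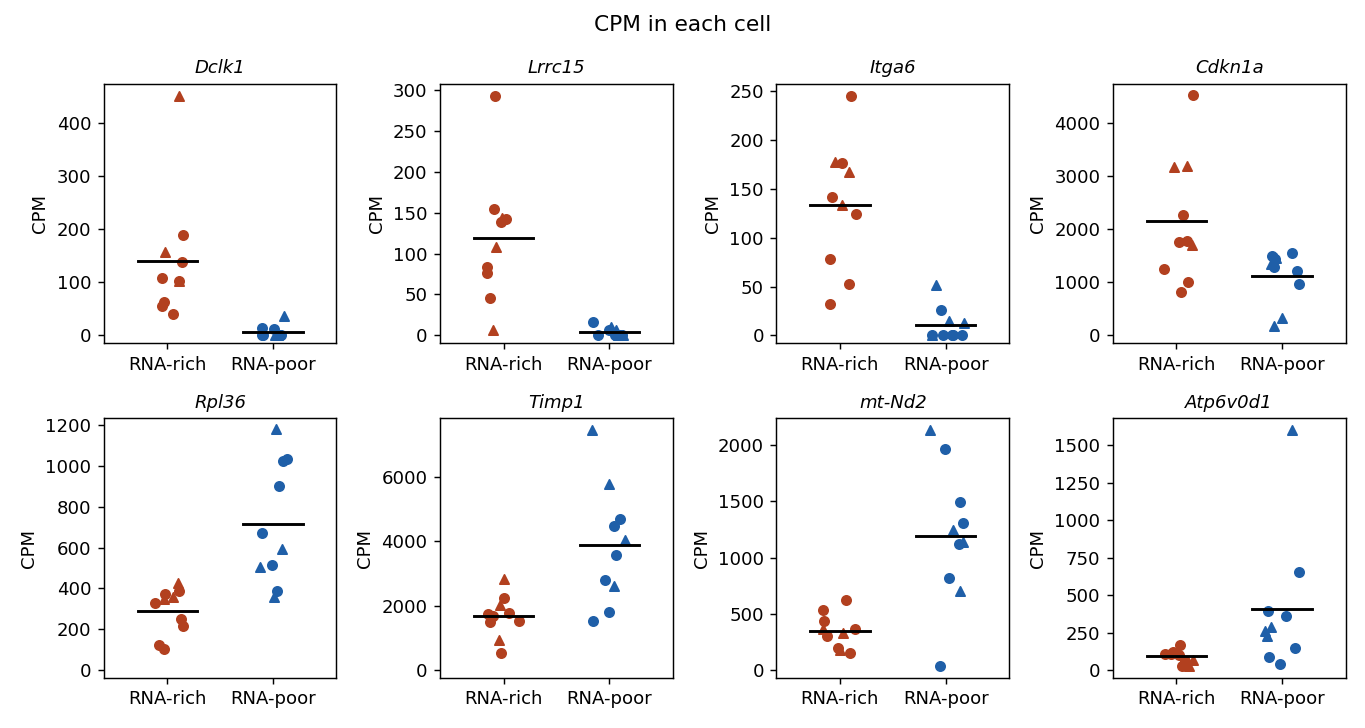
CPM of 8 genes in each RNA-rich cell (left) and each RNA-poor cell (right), with circles for cells with and triangles for cells without micronuclei and lines at the means. Dclk1 is at 40.8 CPM or more in every RNA-rich cell and at 35.8 CPM or less in every RNA-poor cell, and 8 RNA-poor cells lie above every RNA-rich cell for Rpl36.

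The genes at the head of the lower ranking differed less. Atp6v0d1, a subunit of the proton pump of lysosomes at chr8:105524465-105566047, had 27.9 to 166 CPM in RNA-rich cells (median 104) and 39.3 to 1602 CPM in RNA-poor cells (median 275), a log2 ratio of -2.13. It was -1.57 without cell 1 without micronuclei. Ddr2, a receptor for fibrillar collagen, had medians of 33.3 CPM in RNA-rich and 219 CPM in RNA-poor cells (-2.38). Idh3b, a subunit of isocitrate dehydrogenase of the citric acid cycle, had medians of 73.1 and 166 CPM (-2.23). Sar1a, the GTPase that starts vesicle budding from the endoplasmic reticulum, had 0 to 399 CPM in RNA-rich cells (median 198) and 138 to 1339 CPM in RNA-poor cells (median 534), a ratio of -1.70. Medians were 81.4 CPM in RNA-rich and 165 CPM in RNA-poor cells for the vesicle protein Syngr2 (-1.91), 42.7 and 107 CPM for the selenoprotein Selenoh (-1.92), and 49.2 and 116 CPM for Clasp2, which stabilises microtubules (-1.51). The ubiquitin ligase Wwp1 (-2.16) and the membrane-bending protein Bin1 (-2.06) were highest in micronucleated cell 6, an RNA-poor cell with 2391 genes, and stood at -1.26 and -1.17 without it. The ranking also held the annotated hairpin gene Mir6236, at 25.99 CPM in RNA-rich and 160 CPM in RNA-poor cells on average (-2.58), and the neighbouring predicted genes Gm10800 (-2.78) and Gm10801 (-2.42) of chromosome 2. Their counts are uncertain where similar copies share reads. Strand use in counting is not given, so reads of an opposite-strand neighbour could also enter Ddhd2, Dclk1, Rab5a, S1pr3, H2-T22, Ddr2, Idh3b, Wwp1, Bin1, Rpl18, Rpl28, Rpl32, Rps25, mt-Nd5 and mt-Co1. The same holds for Malat1, Hnrnpd, Ei24, Eif2ak2, Tapbp, Ctsb, Igfbp7, Ccnd2 and Cdkn1a.

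Among growth arrest and stress genes, targets of the tumour suppressor p53, which is activated by DNA damage, tended higher in RNA-rich cells. Of 28 measured targets 21 were higher and 7 lower, 10 of them at least 2-fold higher and 1 at least 2-fold lower. Among all measured genes 56.6% were higher, 22.7% at least 2-fold higher and 11.6% at least 2-fold lower. The list's median log2 ratio was 0.47 against 0.16 for all genes. The list's median departed from that of all genes by 0.31. This was 0.19 without RNA-poor cell 13 without micronuclei, 0.20 without RNA-poor micronucleated cell 6 and 0.65 without RNA-poor micronucleated cell 11. Over 17 other settings of processing and cell choice the departure was 0.14 to 0.65. It thus did not always reach the 0.3 at which a list was called apart. Summed over the list there were 3351 to 9830 CPM in RNA-rich cells (median 5855) and 2556 to 5867 CPM in RNA-poor cells (median 5028), and 5 RNA-rich cells exceeded every RNA-poor cell. Cdkn1a, the inhibitor p21 of cyclin-dependent kinases, had 814 to 4517 CPM in RNA-rich cells (median 1758) and 174 to 1550 CPM in RNA-poor cells (median 1305). Its log2 ratio was 0.94, with 7 RNA-rich cells above every RNA-poor cell. Mdm2, which targets p53 for degradation, had medians of 154 CPM in RNA-rich and 5.88 CPM in RNA-poor cells (0.88). Sesn2, a stress-induced regulator of growth signalling, had medians of 36.9 and 0 CPM (3.56), and Ei24 34.1 and 0 CPM (3.15).

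Secreted proteins of senescent cells tended the other way, with 4 of 15 measured genes higher and 11 lower, beside 43.4% of all measured genes lower, and a median of -0.44. Timp1, an inhibitor of metalloproteinases, was the most abundant, at 540 to 2815 CPM in RNA-rich cells (median 1713) and 1532 to 7459 CPM in RNA-poor cells (median 3802). Its ratio was -1.21, and 6 RNA-poor cells exceeded every RNA-rich cell. Igfbp7, a secreted binding protein of insulin-like growth factors, had medians of 185 CPM in RNA-rich and 357 CPM in RNA-poor cells (-0.69). Plaur, the urokinase receptor, went against the list, with medians of 769 and 218 CPM (1.45), though within cells without micronuclei its ratio was -0.11, and without RNA-rich micronucleated cell 13 it was 0.98. Of 12 measured interferon-stimulated genes 8 were higher, beside 56.6% of all measured genes. Their median was 1.06, and the list departed from all genes by 0.89. Of the 37 listed genes with a read, 35 had one in RNA-rich and 24 in RNA-poor cells. The filter for measured genes is easier to meet in the deeper RNA-rich cells, so members high there enter more readily. The part of the filter in this median was not tested. The list's summed level did not follow, with 1605 to 4037 CPM in RNA-rich cells (median 2670) and 377 to 4080 CPM in RNA-poor cells (median 2751). With 1 cell left out the departure was lowest, at 0.46, without RNA-rich micronucleated cell 12. It was 0.63 without the 2 cells with macrophage markers, -0.38 within cells without micronuclei, and -0.03 when the ranking left out the most abundant spike-in. Trim25, a ubiquitin ligase of RNA sensing, had 173 reads in RNA-rich cells and 1 in RNA-poor cells. Eif2ak2, a kinase that senses double-stranded RNA, had medians of 21.3 CPM in RNA-rich and 0 CPM in RNA-poor cells (2.87), and Tapbp of MHC class I loading 44.8 and 3.42 CPM (1.65). The DNA sensor Mb21d1, below the minimum for measured genes, had 67 reads in 2 RNA-rich cells and 0 in RNA-poor cells. Tmem173, its downstream adaptor, had medians of 26.2 and 0 CPM (1.83).

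Division genes did not separate the sides. The list of G2 and mitosis genes had a median of 0.37, with 26 of 41 higher, but the median was -0.41 without RNA-rich cell 4 without micronuclei, which alone carried 9980 CPM of the list. The S phase list stood at 0.24, and at -0.28 without the same cell. Mki67, a marker of cycling cells, had a read in 3 RNA-rich and 3 RNA-poor cells, and Top2a, which untangles replicated DNA, had medians of 18.1 CPM in RNA-rich and 57.8 CPM in RNA-poor cells (-1.34, -0.26 without RNA-poor cell 14 without micronuclei, and 0.95 within micronucleated cells). Mcm5, of the replicative helicase, had medians of 65.9 and 0 CPM (4.11). Ccnd2, a G1 cyclin, had 69.9 to 2120.5 CPM in RNA-rich cells (median 677) and 144 to 5932 CPM in RNA-poor cells (median 839), a ratio of -1.31, and -0.88 without RNA-poor cell 1 without micronuclei.

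The nuclear long noncoding RNA Malat1 had 1713 to 24561 CPM in RNA-rich cells (median 13995) and 659 to 18312 CPM in RNA-poor cells (median 9440), a log2 ratio of 0.53, and the sides overlapped widely. Neat1, the scaffold RNA of paraspeckles, had medians of 2035 and 1057 CPM (0.88). The nuclear noncoding list as a whole stood at 0.46 with equal weights and at 0.12 with summed reads. Most other lists lay within 0.3 of the median of all genes. Collagen and matrix genes had a median of 0.19, contractile and YAP genes 0.08, cytoskeleton and adhesion genes 0.18, proteasome genes 0.24, glycolysis genes 0.20, endoplasmic reticulum chaperones 0.24, lysosome and autophagy genes 0.42, cholesterol synthesis genes 0.19 and antioxidant genes 0.18. Genes of the integrated stress response stood at -0.18, a departure of -0.34, with 12 of 27 higher, and the departure was -0.53 without RNA-rich micronucleated cell 4 and -0.13 without RNA-poor cell 1 without micronuclei. Within these lists single genes differed: Cyr61, a matricellular target of YAP, had medians of 1630 CPM in RNA-rich and 606 CPM in RNA-poor cells (1.30), and Ctsb, a lysosomal protease, 528 and 142 CPM (1.44). Herpud1, of endoplasmic reticulum stress, had 98.8 and 0 CPM (3.92), and Ier3, an immediate early gene, 136 and 30.9 CPM (2.08). Over all 20 cells the ratio was 0.16 for Col1a1, 0.03 for Vim, 0.26 for Actb and -0.11 for Eef1a1. Within the labels it was not even: Col1a1 stood at 1.10 within micronucleated cells and -1.14 within cells without micronuclei, and Vim at 0.58 and -0.62. This difference between the labels was not tested. With scran scaling the ratio was below 0 for Col1a1, Vim and Actb as well.

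**Figure D5:**
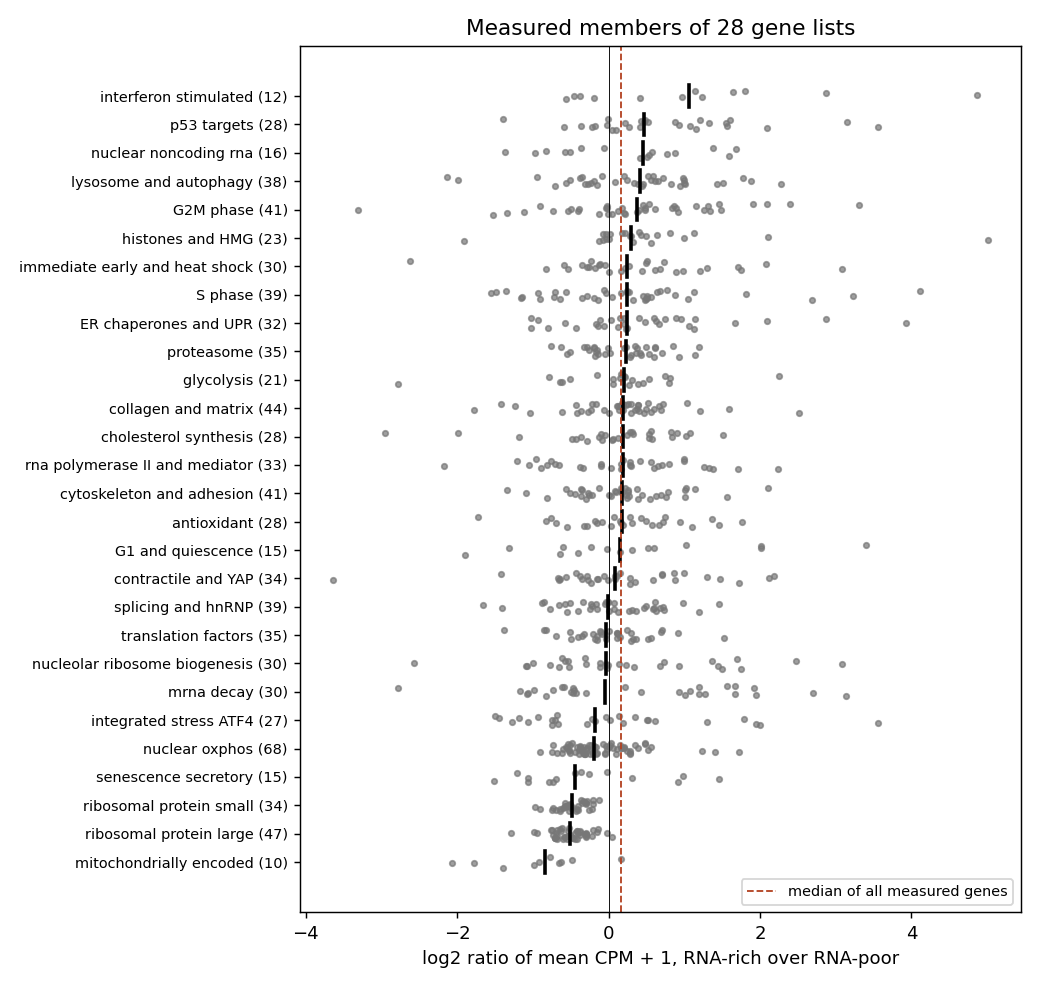
Log2 ratio of mean CPM plus 1, RNA-rich over RNA-poor, for each measured member (grey points) of 28 gene lists, with the number measured in brackets, black bars at list medians and a dashed line at the median of all measured genes, 0.16. Ribosomal protein genes form a narrow band at -0.51 and -0.49, and most other lists scatter widely around the dashed line.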

How the data were processed

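The authors deposited whole-number read counts, not normalized, for 19085 genes and 62 ERCC spike-ins in 35 cells. Per the submitters' processing notes, STAR aligned reads to GRCm38.p5, Rsubread counted them, and scater removed cells over 10% ERCC, under 2000 genes or under 40000 counts. No source used here names tool versions or strand use. Members and gene lists were chosen with earlier results of these data known.

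Cells were ranked by ERCC reads over all reads. Counts per gene, without spike-ins, were scaled to CPM, and the log2 ratio adds 1 CPM to each mean over 10 cells. A list was called apart when its median lay at least 0.3 from that of all genes. Genes are named by rule: the 15 higher and 15 lower with the largest of the smallest ratios over equal weights, summed reads and each cell left out (at least 20 CPM, and 5 reads in 8 cells of the higher side), up to 3 per list, and a fixed set of cycle, p53, fibroblast and housekeeping genes. Dhx16, Rpl18, Rpl28, Rps27 and mt-Rnr1 were added after their values were seen. Some genes that the rule names are not reported here. None of the 595 cell pairs held identical counts. No doublet caller was run. The calculation was tested on simulated data. Software comprised R 4.3.3 with scran 1.30.0 (size factors) and edgeR 4.0.16 (TMM factors), and Python 3.11.15 with matplotlib 3.10.9, scipy 1.17.1, pandas 2.3.3 and numpy 2.4.6.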

Additional observations from a re-analysis of the deposited data

Results flagged for a closer look

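In a group of 10 cells, a value was singled out when its gap to the nearest other cell exceeded 0.466 of the group's range (Dixon's 95% limit). Of 70 groups of values examined 10 were. The limit flags about 1 in 20 groups of normally distributed values. Marker sums that are mostly 0 are not such values, and some groups share genes, so the chance rate here is not known. Micronucleated cell 4, RNA-rich, had 9.57% of its reads on mitochondrial genes (92462 CPM on the listed genes), with the next RNA-rich cell at 2.54%. Micronucleated cell 10, RNA-rich, had 16951 CPM of macrophage markers, with the next at 358 CPM, and 4421 CPM of G1 and quiescence genes. Cell 4 without micronuclei, RNA-rich, had 9980 CPM of G2 and mitosis genes, with the next at 4873 CPM, and 6813 CPM of S phase genes. Micronucleated cell 6, RNA-poor, had 1452 CPM of macrophage markers, with every other RNA-poor cell at 0, and 5506 CPM of RNA polymerase II and Mediator genes and 1448 CPM of integrated stress genes, the lowest of its side. Cell 14 without micronuclei, RNA-poor, had 6978 CPM of S phase genes.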

How the results depend on the processing

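No paired analysis was possible because each cell is its own library and the numbers only name cells. The genes at least 2-fold higher numbered 1467 to 1730 and those lower 778 to 866 with any 1 cell left out, the median of all genes 0.13 to 0.20, the fold of the median gene reads per spike-in read 14.3 to 17.3 and the difference in median genes detected 1902 to 2088. The counts higher and lower were 3695 and 233 on mean log2 CPM, 4623 and 2488 without a filter on low values, 571 and 330 with a stricter one (20 CPM and 10 cells) and 803 and 428 after thinning; within cells without micronuclei they were 635 and 558. Higher genes were 56.6% of those measured, 48.3% with scran scaling, which put the median of all genes at -0.04, and 80.2% on mean log2 CPM. With 17 cells a side the fold of gene reads per spike-in read was 5.42. On mean log2 CPM the ribosomal genes of the large and small subunit had medians of -0.46 and -0.48. Relative to all genes, whose median was 1.09 there, they stood at -1.54 and -1.57. Genes with at least 500 CPM had a median of 0.06 on that scale, so this departure is not matched for abundance. Within cells without micronuclei the large subunit stood at -0.32 relative to all genes, and 63 of the 81 genes were lower there. Also relative to all genes, the interferon list was -0.030 when the ranking left out the most abundant spike-in. Within cells without micronuclei it was -0.38, and nuclear oxidative phosphorylation was 0.36. Among genes at least 2-fold apart, signs turned for Ddhd2 (-1.21), Exosc9 (-0.060), Kcnq1ot1 (-0.54), Gstm1 (-0.50), Ccnb1 (-0.55) and Mb21d1 (-0.54) with 17 cells a side; Kcnq1ot1 (-0.14) with that spike-in left out; Hspa1b (1.88) and Top2a (0.95) within micronucleated cells; Prim2 (-0.88), Plaur (-0.11), Amotl1 (-0.59), Tubb2b (-0.60), Ppp1r15a (-0.11) and Lgmn (-1.02) within cells without micronuclei; and Mvd (0.21) and Hmgn5 (0.46) without the 3 RNA-poor cells under 4000 genes, an alternative chosen after seeing the data, as was leaving out the 2 cells with macrophage markers. The cause was not tested for any of these.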
